A study of Mus musculus with 4 samples.

Results

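The 204 mouse odorant receptor genes named Olfr1000 to Olfr1277 without the suffix -ps were examined here, out of 1430 receptor features and 55511 features in all. The rule uses gene names and no measured value, but it was set with earlier results of these data known. A search of the reference annotation placed every one of them on chromosome 2 (GRCm38). Of these, 201 lay between positions 85607037 and 90403897, a span of 4.80 Mb, and the 3 genes Olfr1275, Olfr1276 and Olfr1277 lay 20.8 Mb further on, between 111230360 and 111274106. The name range therefore covered a large cluster and a small separate one. The annotation gave 203 members as protein-coding and Olfr1010 as a polymorphic pseudogene. The minus strand carried 132 members and the plus strand 72, the median distance to the next member was 14506 bases, and coding sequences were 909 to 1038 bases long. A further 77 receptor genes that were no members, 61 of them -ps genes, lay inside the first span.

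Odorant receptors are G protein-coupled receptors that detect odorants in the cilia of olfactory sensory neurons (OSNs). Each mature OSN usually expresses a single receptor gene from 1 allele, and the neurons that share a receptor form a population whose axons meet in the same glomeruli of the olfactory bulb. Class II receptors, to which the members belong, are the larger of the mammalian receptor classes and are expressed in ventral or dorsal zones of the epithelium, while class I receptors sit in a cluster of their own and are mostly dorsal. OSNs arise from basal stem cells through intermediate progenitors and immature neurons, in which several receptors can be detected before 1 dominates.

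Dissociated main olfactory epithelium of 4 male C57BL/6 mice (C57BL/6J in the methods of the study), 8 weeks of age and without odorant stimulation, had been profiled by droplet RNA-seq, with 1 library per mouse and a sort for nucleated live cells. There was 1 group, so the mice were the replicates (n = 4) and comparisons were made between receptors within a mouse. The smallest two-sided p that an exact sign-flip permutation test over 4 mice can give is 0.125, so none of those tests could pass 0.05, and the number of mice with the same direction is given beside each. Library totals ranged from 23157467 to 32382702 unique molecular identifiers (UMIs, each counting 1 captured transcript), and the median mature OSN had 4004 to 6591. Of 15859 cells with a deposited type, 10519 were mature OSNs and 9791 had a receptor identity, and 26 barcodes among the typed cells occurred in more than 1 library. In the member neurons the summed level of 5 mature OSN markers (Omp, Adcy3, Cnga2, Gng13 and Stoml3) was 272 to 285 UMIs per 10000, against 267 to 275 in other class II neurons. The lists of immature, basal, sustentacular, microvillar and immune markers summed to at most 2.02 in member neurons and the blood list to 0.0823 to 1.21.

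Sequences are shown first for a stretch of the cluster in which neuron numbers changed sharply from gene to gene. Olfr1247 was the identity of 45 neurons, its neighbour Olfr1246 of 6 and its other neighbour Olfr1248 of 0. The coding sequence of Olfr1248 was 97.1% identical to that of Olfr1250, which had 18 neurons. The 200 bases before the RefSeq start of each (GRCm38.p6, minus strand) are at chr2:89591147-89591346 for Olfr1246, chr2:89610154-89610353 for Olfr1247 and chr2:89618246-89618445 for Olfr1248. Capitals mark the 6 letters TAATTA, the core of a homeodomain site, which read the same on both strands.
Olfr1246: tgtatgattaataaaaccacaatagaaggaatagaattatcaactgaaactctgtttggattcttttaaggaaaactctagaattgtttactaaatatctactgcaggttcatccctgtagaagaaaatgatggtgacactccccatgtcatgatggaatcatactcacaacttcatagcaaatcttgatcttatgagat
Olfr1247: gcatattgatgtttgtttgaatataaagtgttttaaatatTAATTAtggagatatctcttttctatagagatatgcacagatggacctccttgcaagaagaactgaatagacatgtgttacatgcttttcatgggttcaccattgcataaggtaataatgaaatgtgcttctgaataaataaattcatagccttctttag
Olfr1248: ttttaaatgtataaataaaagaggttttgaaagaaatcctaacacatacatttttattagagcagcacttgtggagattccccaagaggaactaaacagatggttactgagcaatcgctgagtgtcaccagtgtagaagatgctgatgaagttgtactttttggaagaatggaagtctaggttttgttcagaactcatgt
Of the 3 windows, that of Olfr1247 held TAATTA once and the others did not hold it. RefSeq start windows were found for 170 members, but 121 of 171 windows began at the coding start and so need not lie at a transcription start. Among the 50 other member windows, with 250 bases searched, 13 (26.0%) held TAATTA, against 15.6% of the 212 like windows of other Olfr genes and 4.84% of all 32851 windows. Of the 121 member windows at the coding start, 24.0% held it. Mean GC content was 30.9% in the 50 member windows, 38.0% in the 212 windows of other Olfr genes and 53.2% in all windows, and its part in the shares was not tested. The 13 windows with the letters belonged to members with a median of 11 neurons and the 37 without to members with a median of 3. The numbers overlapped, from 0 to 45 neurons with the letters and from 0 to 17 without. No neuron was found for 1 of the 13 and for 9 of the 37. The 50 windows came from 49 genes, and a relation to neuron number was not tested. The core of an Ebf site, TCCC and GGGA with any 2 letters between them, which reads the same on both strands, were in 0 of the 50 windows and in 0.779% of all windows. Such matches describe the letters in these windows only.

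A second set shows how alike neighbouring members can be. Olfr1197 was the identity of 43 neurons and Olfr1196, whose coding sequence was 97.0% identical, of 6, while Olfr1200 nearby had 17. The first 150 coding bases of each (GRCm38, minus strand) are at chr2:88729448-88729597 for Olfr1197, chr2:88701178-88701327 for Olfr1196 and chr2:88768164-88768313 for Olfr1200. Capitals mark bases that differ from Olfr1197.
Olfr1197: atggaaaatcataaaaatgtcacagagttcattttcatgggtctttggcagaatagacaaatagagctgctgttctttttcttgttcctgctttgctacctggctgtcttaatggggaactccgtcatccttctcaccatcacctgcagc
Olfr1196: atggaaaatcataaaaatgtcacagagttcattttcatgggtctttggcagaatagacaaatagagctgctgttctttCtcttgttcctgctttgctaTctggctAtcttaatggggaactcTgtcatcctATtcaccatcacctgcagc
Olfr1200: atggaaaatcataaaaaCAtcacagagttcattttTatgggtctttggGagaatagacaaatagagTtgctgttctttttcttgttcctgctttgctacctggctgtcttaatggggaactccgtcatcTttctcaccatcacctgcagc
Counted from the first coding base, with the Olfr1197 base named first, Olfr1196 differed by T79C, C99T, G106A, C123T, T132A and C133T. Olfr1200 differed from Olfr1197 by T18C, G19A, C36T, C49G, C67T and C130T. Over whole coding sequences, the closest other receptor of a member was 89.5% identical at the median of 202 members, 54 members had a receptor at 95% or more, and the closest one was itself a member for 167. UMIs were read at 3′ ends and not over the coding sequence, so that coding identity bears only in part on how well copies could be told apart.

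Members were the identity of 1721 of the 9791 neurons. By mouse these were 432 of 2690, 452 of 2342, 280 of 1759 and 557 of 3000, a share of 16.1%, 19.3%, 15.9% and 18.6% (mean 17.5% ± 1.73, SD, n = 4). A member had 8.44 neurons on average over the 4 mice together. The 1051 other class II Olfr genes, pseudogenes included, had 6.59, and the ratio within a mouse was 1.18, 1.43, 1.17 and 1.31 (mean 1.27 ± 0.124, above 1 in 4 of 4 mice, exact two-sided sign-flip permutation p = 0.125). Against the 788 other class II genes without a -ps name the ratio was 0.997 ± 0.0979, above 1 in 2 of 4 mice (exact permutation p = 1.0). With pseudogenes kept but only receptors with at least 1 neuron counted, it was 1.00 ± 0.0978. With all genes counted but the 10 largest populations of each set left out, it was 1.06 ± 0.112. Over the 14 sign-flip tests of main values outside the cluster shares, the lowest Benjamini-Hochberg adjusted p was 0.292, and values under other settings are given without a p.

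The neurons were spread unevenly over the members. At least 1 neuron was found for 167 members and none for 37. A single neuron was found for 13 members, 3 or more for 136, 10 or more for 51 and 20 or more for 24, and 64 members were seen in all 4 mice. The median member had 5 neurons. The 10 largest member populations held 465 neurons, or 27.0% of all member neurons. Members with no neuron made up 18.1%, against 17.9% of other class II genes without a -ps name. Those with 20 or more neurons made up 11.8% of members and 11.5% of these other genes. Seen in all 4 mice were 31.4% of members and 36.2% of the others, whose median was also 5 neurons. The 10 largest populations of the 788 other genes held 9.16% of their neurons, but such a share depends on the number of genes.

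Olfr1226 was the largest member population, with 19, 28, 7 and 25 neurons in mice 1 to 4, 79 in all. Olfr1264 had 13, 12, 11 and 14 neurons, Olfr1211 had 10, 14, 6 and 19, and Olfr1176 had 13, 13, 11 and 12. As shares of all assigned neurons, Olfr1226 held 0.783% ± 0.330 (SD, n = 4) and Olfr1264 0.522% ± 0.0715. The 7 neurons of Olfr1226 in mouse 3 were fewer than the 11 of Olfr1264 there, so the 2 largest populations did not keep their order in every mouse. The next in number were Olfr1247 (45 neurons), Olfr1222 (44), Olfr1197 (43), Olfr1195 (38), Olfr1037 (36) and Olfr1206 (32), with 5 to 18 neurons in each mouse. The counts by mouse of each of these 6 overlapped with those of the next in rank. Over the 204 members, Spearman's rho of neuron numbers between pairs of mice was 0.491 to 0.655, a description across genes that share libraries.

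**Figure D1:**
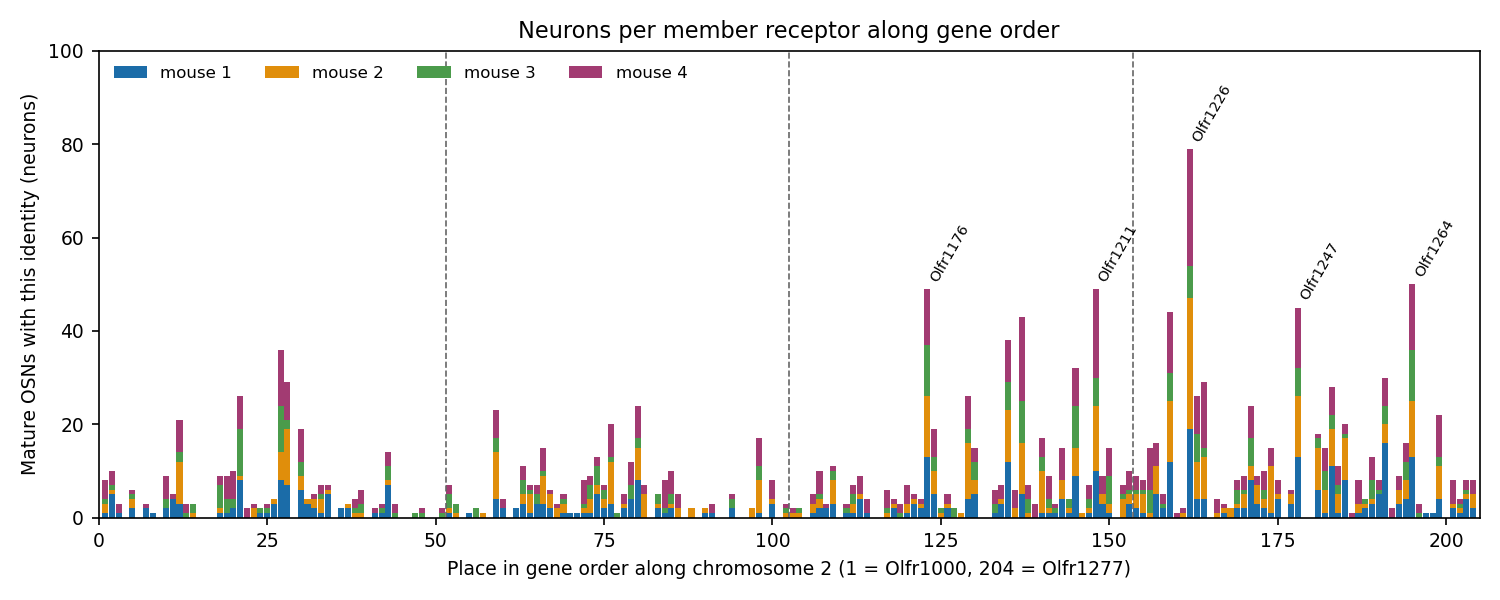
Number of mature OSNs with each member identity (y axis, neurons), stacked by mouse, in the order of the genes along chromosome 2 (x axis, place 1 to 204), with dashed lines between blocks of 51 genes. The last 51 genes hold 665 neurons and the first 51 hold 289, and Olfr1226 stands highest at 79.

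More neurons were found at the end of the gene order than at its start. The members were divided into 4 blocks of 51 by position, a division made after the values were known and the block differences, although counted among the 14 tests above, are given as a description with no p. From Olfr1000 to Olfr1079 the 51 genes held 289 neurons, from Olfr1080 to Olfr1148 they held 275, from Olfr1151 to Olfr1216 they held 492 and from Olfr1217 to Olfr1277 they held 665. Members with no neuron numbered 13, 12, 7 and 5 in these blocks, and members with 20 or more numbered 4, 3, 6 and 11. The last block held 38.1% ± 4.69 of the member neurons of a mouse and the first 17.2% ± 4.14 (SD, n = 4), a difference of 21.8, 30.8, 10.7 and 20.3 percentage points. Without the 10 largest members the mean difference was 14.5 points. Neighbours were only loosely alike: Spearman's rho between a member and the next one was 0.202 over the summed neuron numbers, 0.0400 to 0.173 within single mice, and 0.0568 for the gene after the next.

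Adjacent members could differ strongly. The pairs with the largest ratio of neuron numbers were Olfr1247 with 45 beside Olfr1248 with 0, 3038 bases apart, Olfr1039 with 29 beside Olfr1040 with 0, and Olfr1229 with 29 beside Olfr1230 with 0. They were followed by Olfr1226 with 79 beside Olfr1225 with 2 and Olfr1090 with 23 beside Olfr1089 with 0. Some of these had close copies: Olfr1248 was 97.1% identical as coding bases to Olfr1250, with 18 neurons, and Olfr1040 was 94.6% identical to Olfr1039. The closest sequences of Olfr1230 and Olfr1089 were 78.5% and 79.5% identical. The most alike pairs had few neurons to compare. Somewhat less alike pairs could have more, such as Olfr1196 and Olfr1197, 97.0% identical as coding bases, with 6 and 43. The 5 pairs with the most alike translated coding sequences began with Olfr1049 and Olfr1051, 98.7% identical as coding bases, with 3 and 4 neurons, and Olfr1129 and Olfr1130, 97.9% identical, with 2 and 0. Olfr1057 and Olfr1062, 98.2% identical, had 3 and 1, Olfr1080 and Olfr1082, 98.1% identical, had 7 and 3, and Olfr1034 and Olfr1036, 98.0% identical, had 3 and 4. The number of neurons of a member was not related to its highest coding identity (Spearman's rho -0.0567 over 202 members, a description), and counts of near-identical copies stay uncertain where a read could come from either.

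The 37 members with no neuron were looked up in the other cells. Of these, 12 had no UMI in any retained cell: Olfr1008, Olfr1024, Olfr1053, Olfr1061, Olfr1089, Olfr1094, Olfr1128, Olfr1141, Olfr1153, Olfr1164, Olfr1248 and Olfr1249. For these, 0 of 10519 mature OSNs allows a share of up to 0.0285% of mature OSNs with a UMI, by counting error alone. Of the 37, 10 were the highest receptor of at least 1 immature cell, with 9 to 241 UMIs in immature OSNs. A further 8 had only 1 to 3 immature UMIs. In types that should lack receptors (basal, sustentacular and microvillar cells) 7 of the 37 had a UMI, with 16 UMIs for Olfr1133, so that such low counts are not read as expression. Olfr1186 had 239 UMIs in 6 late immature cells, being the highest receptor in 5 of them (0, 4, 1 and 0 by mouse), and 1 UMI in all mature OSNs. Olfr1047 had 125 UMIs in 2 late immature cells and Olfr1121 had 46 in 2, each with 0 in mature OSNs. Olfr1014 had 50 UMIs in 1 mature OSN, of which it was the highest receptor but which had no deposited Olfr1014 identity, and Olfr1214 had 6 UMIs in 3 mature OSNs, 34 in 1 late immature cell and 36 in 3 early ones. The median highest coding identity was 91.7% for the 37 and 88.9% for the members with a neuron, and 5 of the 37 had a copy at 95% or more.

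The level of the own receptor was compared between populations. The median population had 84.6 ± 4.82 UMIs of its own receptor per 10000 UMIs (SD, n = 4), the highest value being 91.2 in mouse 2, over the 37 to 75 member populations with 3 or more neurons in that mouse. Other class II populations had 81.1 ± 3.62. The difference was 4.63, 5.26, -1.39 and 5.53, with mouse 3 the other way (mean 3.51 ± 3.28, exact two-sided sign-flip permutation p = 0.25). Over populations with 5 or more neurons the difference was 6.42 ± 6.10, and in raw UMIs per neuron it was 5.62 ± 2.63, both higher in 4 of 4 mice. With neurons thinned to 5000 UMIs it was 3.75 ± 4.56 per 10000, and not higher in 4 of 4 mice. In raw counts the median member neuron held 32 to 54 UMIs of its receptor, at a median of 4032 to 6908 UMIs per neuron. Other class II neurons had a median of 3965 to 6517 UMIs, lower than members in every mouse, and raw counts move with this depth.

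Single members were then compared with each other. Among the 51 with 10 or more neurons the median was 86.7 per 10000, and Olfr1253 stood highest with 632, 425, 431 and 454 by mouse. Olfr1140 had 245, 273, 284 and 211, and Olfr1228 had 218, 209, 219 and 255. Olfr1226, the largest population, had 188, 190, 167 and 194, and Olfr1124 had 205, 161, 188 and 172. At the other end, Olfr1100 had 19.6, 13.1, 21.5 and 18.0. Olfr1220 had 18.6 to 23.2 in the 3 mice where it was seen, and Olfr1184 had 17.4, 23.5, 28.1 and 47.6. Olfr1090 had 28.7, 20.6, 16.4 and 31.2, and Olfr1037 27.0, 50.7, 44.8 and 23.4. The 5 highest and the 5 lowest populations did not overlap in any mouse, which follows from how they were ranked. Population size said little about the level (Spearman's rho 0.130 over the 105 members with 5 or more neurons, a description), as seen in Olfr1211, with 49 neurons and a median of 32.9.

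**Figure D2:**
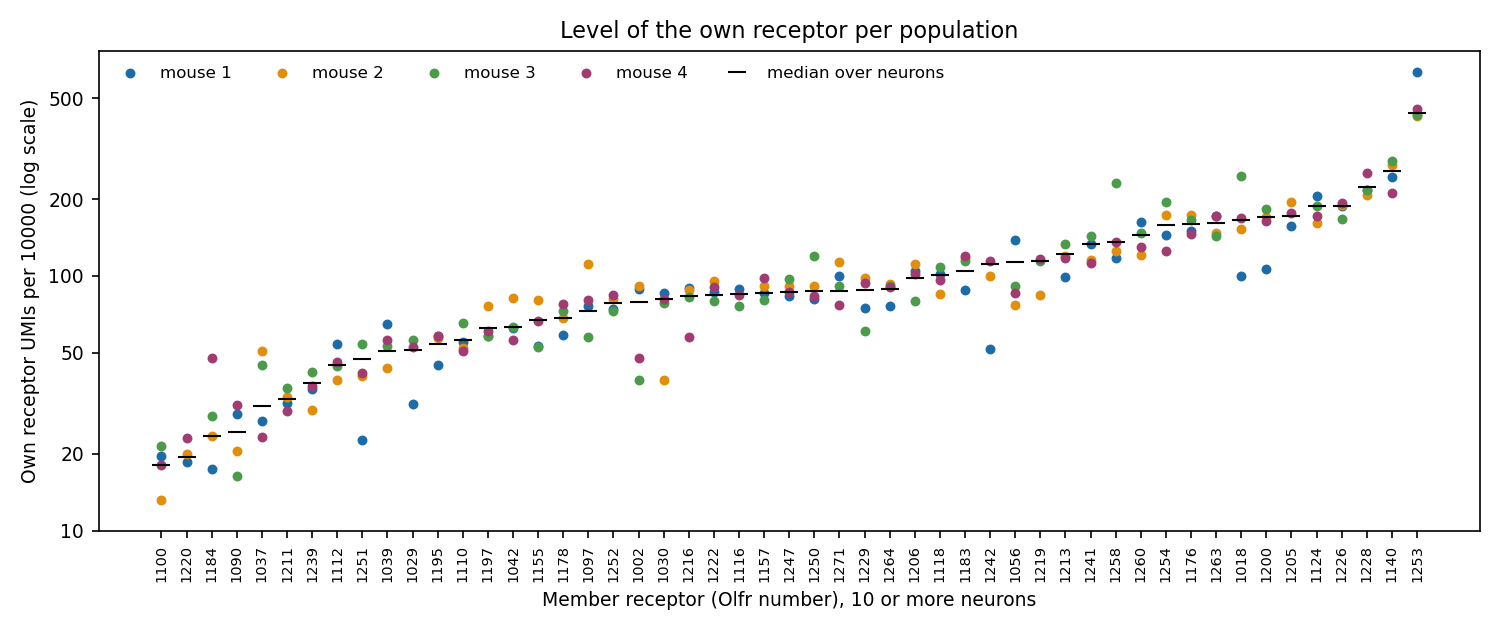
UMIs of the own receptor per 10000 UMIs (y axis, log scale) in the 51 member populations with 10 or more neurons, ordered by their median (x axis, Olfr number); points are medians within a mouse and dashes the median over all neurons. Populations run from Olfr1100 at 18.0 to Olfr1253 at 438, and the points of the 5 lowest and the 5 highest do not overlap.

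The deposited OSN clusters, which had been made without receptor genes, gave the place of 1672 member neurons on the dorsal or ventral side and in marker-defined subsets. Member neurons lay in dorsal clusters at 23.2%, 17.1%, 24.2% and 19.6% by mouse (mean 21.0% ± 3.25), and other class II neurons at 20.8% ± 2.22. The difference was 0.203 ± 1.35 percentage points, higher in 2 of 4 mice (exact two-sided sign-flip permutation p = 0.75). With each population weighing the same, it was -3.97 ± 1.83 points.

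Within the members, side differed between stretches of the chromosome, without a steady change along the gene order. In the block from Olfr1000 to Olfr1079, 75.6%, 63.5%, 70.9% and 67.8% of neurons were in dorsal clusters (mean 69.4% ± 5.14). The second block had 13.7% ± 2.19, the third 24.0% ± 2.40 and the last 0.562% ± 1.12, where 3 mice had 0. The blocks did not overlap between mice. A single boundary, chosen after the values were seen and given with no test, lay after Olfr1176. The 123 members up to it had 51.6% ± 4.30 of their neurons in dorsal clusters (341 of 665 neurons), and 35 of 74 populations with 3 or more clustered neurons were mostly dorsal. The 81 members after it had 0.418% ± 0.622 (3 of 1007 neurons), and 60 of 62 such populations had no dorsal neuron. Olfr1176 itself had 47 of 49 neurons in dorsal clusters and the next member, Olfr1178, had 0 of 19.

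**Figure D3:**
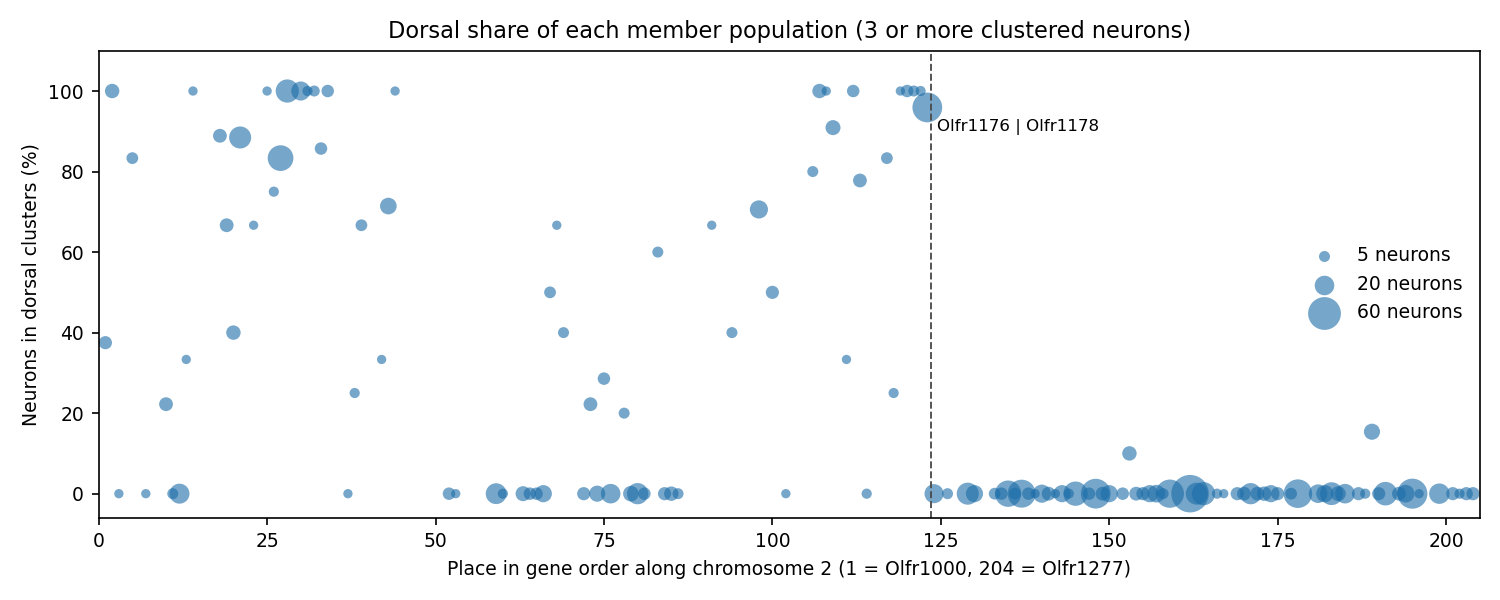
Percent of clustered neurons in dorsal clusters (y axis) for each member population with 3 or more clustered neurons, in gene order (x axis); the area of a point grows with the number of neurons and the dashed line marks the boundary after Olfr1176. Points spread from 0 to 100% before the line, and 60 of 62 lie at 0 after it.

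The side of single members was compared along the gene order. Among members with 10 or more neurons, those with over 50% in dorsal clusters were Olfr1176 (95.9% of 49), Olfr1037 (83.3% of 36), Olfr1039 (100% of 29), Olfr1030 (88.5% of 26), Olfr1042 (100% of 19), Olfr1140 (70.6% of 17), Olfr1056 (71.4% of 14), Olfr1157 (90.9% of 11), Olfr1002 (100% of 10) and Olfr1155 (100% of 10). Nqo1, an oxidoreductase gene that marks the dorsal zone, was at 14.8 to 46.4 per 10000 of all UMIs, summed over the neurons of a population, in these 10 populations, and Nfix, a transcription factor gene of ventral neurons, at 0 to 1.64. The clusters had been called dorsal or ventral from these genes, so that both values follow from the choice of populations. Of 135 pairs of consecutive members with a side, 107 (79.3%) were on the same side, against 61.5% of all pairs of these 136 populations. Up to Olfr1176 these were 46 of 73 consecutive pairs (63.0%), against 49.5% of all pairs there, and no test was made. The dorsal shares of neighbours over all members had a Spearman's rho of 0.642 as a description. Of 52 member pairs with 90% or more identity of the translated sequences, 25 had a side for both, and 21 of these 25 (84.0%) were on the same side while 17 had the same leading cluster. Up to Olfr1176 it was 7 of 11. Near-identical copies also lie close together, so position and sequence cannot be told apart here.

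Counted by neurons, several clusters showed a larger difference from other class II neurons than side did. With each population weighing the same, side differed by -3.97 ± 1.83 points, and clusters were not compared in that way. The plain Ventral cluster held 58.7%, 67.1%, 56.5% and 61.9% of member neurons by mouse, against 51.1% ± 3.31 of other class II neurons, 9.92 ± 3.98 points more in 4 of 4 mice. Calb2+ D., the dorsal cluster marked by calretinin, held 6.58% ± 1.52 against 3.74% ± 0.487. The Cd36+ V. cluster, marked by a fatty acid receptor gene, held 2.12% ± 0.443 against 7.11% ± 1.33. Cd55+ V., marked by a complement regulator gene, held 0.766% ± 0.244 against 5.16% ± 0.913. In Cd36+ D. there were 0 of 1672 member neurons, which allows a share of up to 0.179% by counting error alone, against 1.21% ± 0.336 of other class II neurons, and in Cd55+ D. there were 2. Each of these 6 differences had the same direction in 4 of 4 mice (exact permutation p = 0.125, adjusted 0.208 over the 10 clusters). For the other 4 clusters 1 or 2 mice were higher, and the largest mean difference was -0.682 ± 2.02 points in Dlg2+ V.

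**Figure D4:**
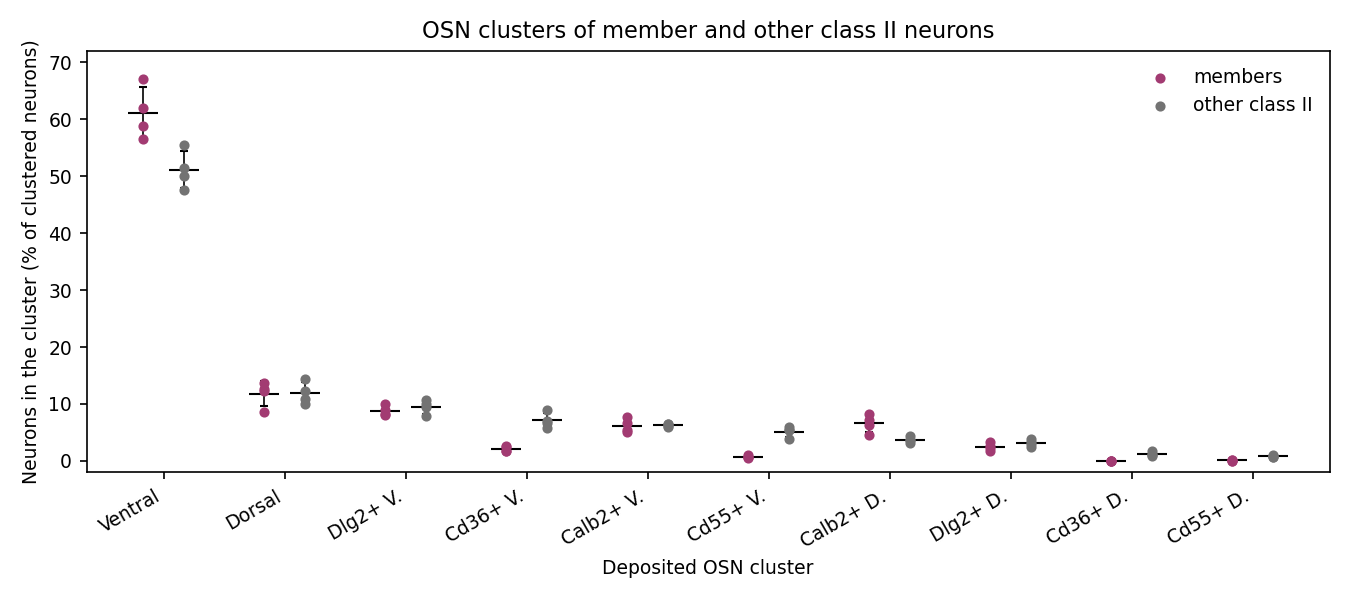
Percent of clustered neurons (y axis) in each deposited OSN cluster (x axis) for members and for other class II receptors; points are mice and bars the mean and SD over 4 mice. Member points lie above the others in Ventral and Calb2+ D. and below them in the Cd36+ and Cd55+ clusters.

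The leading cluster of the 136 member populations with 3 or more clustered neurons was Ventral for 73, Dorsal for 24, Dlg2+ V. for 13, Calb2+ V. for 8, Calb2+ D. for 7, Dlg2+ D. for 6, Cd36+ V. for 3 and Cd55+ V. for 2. The 5 populations led by a Cd36 or Cd55 cluster are named here after their values were seen. In the small distant cluster, Olfr1275 had 3 of 4 neurons and Olfr1276 8 of 8 in Cd36+ V., while Olfr1277 beside them had 87.5% of 8 in Ventral. Olfr1251 had 14 of 15 neurons in Cd36+ V., and Olfr1253, the member with the highest receptor level, 7 of 11 in Cd55+ V. Olfr1055 had 2 of its 3 there. Complete or nearly complete assignment to a subset was found for Olfr1039 and Olfr1042, all in Calb2+ D., and Olfr1184, with all 15 in Calb2+ V.

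Genes other than receptors were compared between the summed UMIs of member neurons and of other class II neurons in each mouse, with edgeR's quasi-likelihood test, the mouse as a block and a Benjamini-Hochberg limit of 0.05. Levels are UMIs per 10000 non-receptor UMIs, and log2 changes are given ± SE. Each sum pools many populations, so the p-values and SEs do not measure the spread between populations. Of 11550 genes, 113 (0.978%) passed, 47 (0.407%) higher and 66 (0.571%) lower in member neurons. Cd36 was at 0.204, 0.383, 0.387 and 0.406 in member neurons and 0.631, 0.992, 0.739 and 0.775 in the others (log2 -1.20 ± 0.08, adjusted p = 6.53e-30 by edgeR). Cd55 was at 0.821 to 1.14 against 1.93 to 2.49 (log2 -1.12 ± 0.05). Neither gene's groups overlapped. Tshz1, a zinc finger factor, fell by 0.78 on the log2 scale, Tppp3, a tubulin-binding protein, by 0.64, and Pcdh10, a protocadherin, by 0.54. Celf3, Robo2, Fbxl15, Rnd2 and Cartpt followed, with log2 changes from -0.38 to -0.29.

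The largest rise was that of Nfia, a nuclear factor I gene, at 0.462 to 0.594 in member neurons against 0.293 to 0.367 (log2 0.70 ± 0.08, adjusted p = 7.59e-12 by edgeR). Gm31557 rose by 0.55, the interferon-induced Ifi27 by 0.44, Pdlim1, a PDZ and LIM domain gene, by 0.42 and Calb2, calretinin, by 0.40 on the log2 scale. Calb2 was at 3.92 to 5.44 in member neurons and 3.02 to 3.91 in the others. Aldh3b1, Rims3, Nrp2, Cotl1 and Dhrs3 rose by 0.30 to 0.42. With no replicate block 15 genes passed, with DESeq2 30 and after thinning to 5000 UMIs 48, and of the 20 genes named here 4, 11 and 13 still did. Cd36, Cd55, Tshz1 and Nfia passed in each of the 3.

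By group, 5 of 10 zone genes passed, with Nfia, Nfib, Nrp2 and Cidea higher and Robo2, a Slit receptor, lower. Of 11 subset genes 8 passed, 7 of them lower and Calb2 higher. The 7 included S100a5, a calcium-binding protein of OSNs (219 ± 19.9 against 241 ± 19.5, log2 -0.14 ± 0.02), Pcp4l1 and Dlg2. Of 16 transduction genes only the channel subunit Cnga2 and Stoml3 passed, both higher by under 0.1 on the log2 scale, while Omp and Adcy3 did not (log2 0.01 ± 0.02 and 0.02 ± 0.02). Of 15 axon genes 4 passed (Nrp2 higher, Pcdh10, Plxna1 and Robo2 lower), and none of 11 genes of receptor choice or 5 immature genes did. The median log2 change was 0.12 in the zone list and -0.23 in the subset list, against 0.004 over all genes tested. Since clusters differ in these genes, the shares of clusters described above move with the subset counts, and their part was not tested in this comparison.

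With the plain Ventral cluster held fixed, 192 of 10427 genes (1.84%) passed, 96 (0.921%) in each direction. The paper describes this cluster as ventral neurons that lack the markers Dlg2, Calb2, Cd36 and Cd55. Neurons rich in these genes had thus been placed elsewhere, and calls of these genes within the cluster are tied to that sorting. Calb2 was higher in member neurons here too, at 1.15 to 1.59 against 0.553 to 0.695 (log2 1.12 ± 0.08, adjusted p = 3.03e-32 by edgeR). That p does not measure the spread between populations. Of the 20 populations compared below, Calb2 was below 1 in 13. Olfr1226, with 79 neurons, and Olfr1178, both led by this cluster, were among the highest. Calb2 still passed with at most 5 neurons per population and mouse, and the part of single populations was not tested. Gm31557 rose by 1.01, Nfia by 0.80, Cd55 by 0.71 and the calcium sensor Scgn by 0.69 on the log2 scale, with Tppp3, C1qtnf12, Rims3, Cotl1 and Metrnl at 0.53 to 0.61. Cd36 had 43 UMIs in member neurons here and 53 in the others (log2 1.34 ± 0.33, adjusted p = 0.00657 by edgeR), and did not pass with DESeq2. Cd36, Cd55 and Tppp3 were thus higher in the plain Ventral cluster and lower over all clusters. Mouse 1 stood apart for Cd55 and Tppp3, at 1.46 for Cd55 in member neurons against 0.744 to 0.841 in the other mice for the former, and neither passed without it. C1qtnf12 and Metrnl, and Kcng1 among the genes named next, did not pass without mouse 1 either.

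On the lower side, Avp, the vasopressin precursor, had 3 UMIs in member neurons of the Ventral cluster and 1288 in the others (log2 -6.88 ± 0.28). The other class II level of Avp was 1.61, 0.0700, 0.307 and 0.713 by mouse, highest in mouse 1. With neurons thinned to 5000 UMIs, Avp had 3 UMIs against 510 and was left out by the expression filter, and so was not tested. Pcdh10 fell by 1.07, the growth factor Ptn by 0.78, Tuba4a by 0.74, the semaphorin receptor Nrp1 by 0.70 and the neuropeptide precursor Cartpt by 0.66 on the log2 scale. Cartpt was at 3.20 to 4.21 against 5.32 to 6.07, with no overlap. Dlg2, Pappa, Cdkn1a and Kcng1 fell by 0.50 to 0.59. Of 10 subset genes tested all passed, 4 higher and 6 lower, including Calb2, Cd36, Cd55 and Dlg2, whose absence defined the cluster. Of 14 axon genes 9 passed, 7 of them lower. Zone genes passed in 5 of 10 cases, and of 16 transduction genes none did. Without mouse 1 the count of genes was 49 and without mouse 4 it was 108. With no replicate block it was 33 and with DESeq2 41. Of the 20 genes that the naming rule selects in this cluster, Cd55, Tppp3 and Kcng1 did not pass with no replicate block, these and C1qtnf12, Metrnl, Nrp1 and Pappa not with DESeq2, and Metrnl not after thinning.

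The dorsal clusters were pooled, and their mix differed between the groups. Calb2+ D. held 105 member neurons, Cd36+ D. 0 and Cd55+ D. 2, with the shares given above, and the part of this mix in the changes of Calb2, Cd55, Tppp3 and the other genes was not tested. In these clusters 21 of 8024 genes (0.262%) passed, 6 (0.0748%) higher and 15 (0.187%) lower. Calb2 was at 9.58 to 12.1 in member neurons against 4.69 to 7.24 (log2 0.79 ± 0.05, adjusted p = 2.78e-24 by edgeR). This p does not measure the spread between populations either. The part of single populations, such as Olfr1039 and Olfr1042 with all neurons in Calb2+ D., was not tested. The other 5 rises were 4932412D23Rik, Lima1, Mapre1, Ptn and Rtn1, at 0.20 to 0.72 on the log2 scale. Tppp3 fell by 2.59, Tshz1 by 2.11 and Cd55 by 1.33, and Rasl11a, Scgn, Dlg2, Pcdh17, S100a5 and H2bc21 by 0.26 to 0.88. S100a5 was at 132 to 190 against 193 to 239. Of 10 subset genes tested 8 passed, with Calb2 and Ptn higher and 6 lower, and none of the 8 zone genes or 16 transduction genes did. Without mouse 2 or without mouse 3 the count was 13, with no replicate block it was 7, and with DESeq2 or after thinning to 5000 UMIs it was 5. Of the 16 genes that the naming rule selects here, Calb2, Tppp3, Tshz1, Cd55 and Dlg2 passed with no replicate block, Calb2, Tppp3 and Tshz1 with DESeq2, and Calb2, Tshz1, Dlg2 and S100a5 after thinning. Thus Cd55 lost its call with DESeq2 and after thinning, Tppp3 after thinning, and S100a5 with no replicate block and with DESeq2.

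Member populations were also compared with each other. Over 20 populations with neurons enough in each mouse, 691 neurons in all, 396 of 1458 genes (27.2%) passed edgeR's F test between populations, with the mouse as a block. The 10 genes with the largest F were Nqo1, Calb2, S100a5, Cartpt, Pcp4l1, Acsm4, Cidea, Pdlim1, Tmsb4x and Kirrel2. Nqo1 and Acsm4, an acyl-CoA synthetase gene of the dorsal zone, were high in the same 3 populations. Nqo1 was at 47.6 ± 11.3 in Olfr1042, 44.6 ± 7.65 in Olfr1176 and 19.4 ± 3.68 in Olfr1037 (SD, n = 4), and at most 0.290 in the other 17. These 3 were the dorsal ones of the 20, by clusters that had been named from Nqo1.

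S100a5 was graded over the populations, from 1.83 ± 1.39 in Olfr1042 and 3.80 in Olfr1184 to 444 ± 60.1 in Olfr1222 and 518 ± 148 in Olfr1037. Of the 3 dorsal populations, Olfr1042 and Olfr1037 were at the ends of that range and Olfr1176 was at 39.1 ± 16.1, between ventral ones. Calb2 was at 42.0 ± 6.91 in Olfr1042, 35.3 ± 8.91 in Olfr1184, 16.0 ± 7.84 in Olfr1178 and 10.7 ± 2.94 in Olfr1226, and below 1 in 13 of 20. Cidea, a gene of lipid droplet proteins, was at 6.27 ± 2.05 in Olfr1195 and 5.64 ± 2.56 in Olfr1206 and below 1 in 9 populations. Olfr1195 and Olfr1197 are near each other on the chromosome, and Olfr1197 was among those 9. Kirrel2, an adhesion molecule of OSN axons, was at 14.7 ± 0.862 in Olfr1197 and 0.263 ± 0.526 in Olfr1042. Tmsb4x, thymosin beta 4, was above 55 in every population, from 55.2 ± 12.1 in Olfr1195 to 249 ± 20.7 in Olfr1176. By group, 9 of 9 zone genes, 8 of 8 subset genes and 10 of 10 axon genes that could be tested passed, as did 12 of 15 transduction genes. Over all genes tested, 27.2% passed. The lists had been chosen with earlier results of these data known. The expression filter also let a gene be tested when it was high in only a few populations. Acsm4, for example, was below 1 in 17 of 20. The counts by group were thus set in part by these choices. Omp, the olfactory marker protein gene, ranged from 54.8 ± 3.92 in Olfr1042 to 94.0 ± 12.1 in Olfr1228. Each of the 10 genes passed under every alternative run, leaving out each mouse included.

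**Figure D5:**
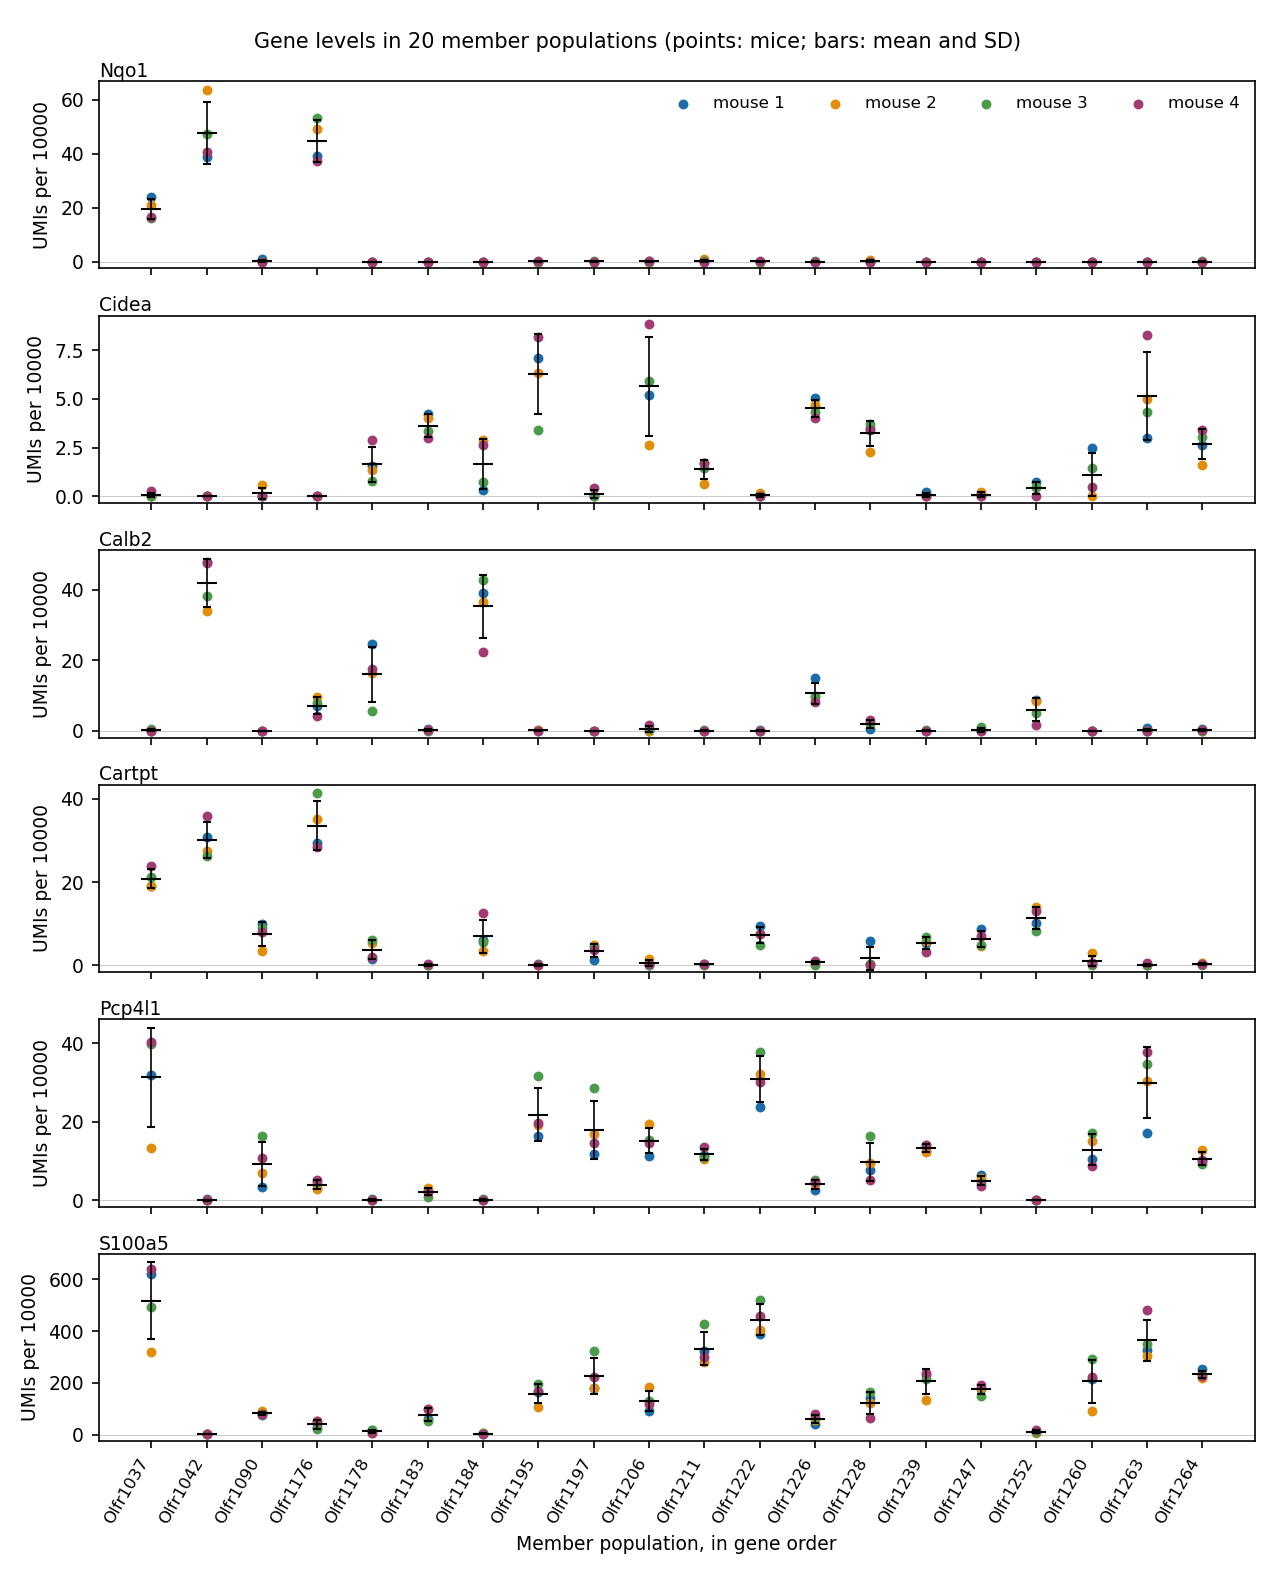
UMIs per 10000 non-receptor UMIs (y axes, linear) of 6 genes in 20 member populations in gene order (x axis); points are mice and bars the mean and SD over 4 mice. Nqo1 is high in Olfr1037, Olfr1042 and Olfr1176 only, among these 20, and S100a5 is graded from 1.83 in Olfr1042 to 518 in Olfr1037.

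Members were detected in both stages of immature neurons. With each cell thinned to 5000 UMIs, a member UMI was found in 25.2%, 22.0%, 18.9% and 22.9% of the earlier immature cells (iOSN1, mean 22.3% ± 2.61, 682 cells) and in 18.6%, 28.8%, 29.7% and 25.8% of the later ones (iOSN2, mean 25.7% ± 5.04, 828 cells). The value in mature OSNs was 21.5% ± 2.19. Cells that should lack receptors gave 3.09% ± 2.33 in globose basal cells, 3.88% ± 0.853 in HBC2 horizontal basal cells, 4.75% ± 3.56 in sustentacular cells and 4.26% ± 1.75 in Mv2 microvillar cells. HBC1 cells ranged from 0 to 44.4% over mice, the highest value resting on 9 cells, and Mv1 cells from 0 to 16.7% with 26 cells in all. Progenitors (INP) stood at 9.02% ± 2.87. Without thinning the values were 24.1% ± 2.20 in iOSN1 and 26.0% ± 5.19 in iOSN2, at median depths of 6830 and 7302 UMIs, and 4.27% ± 2.66 in Mv2 at 5081. Thinning left out 184 iOSN1 and 178 iOSN2 cells, and 5536 of 10519 mature OSNs. The thinned mature values thus rest on the deeper neurons, and without thinning the mature value was 20.8% ± 1.44. With 2 or more UMIs of a member, the share was 15.2% ± 3.48 in iOSN1, 23.4% ± 4.60 in iOSN2 and 18.8% ± 2.60 in mature OSNs, so that iOSN1 was below mature OSNs in 4 of 4 mice and iOSN2 above them in 3 of 4, with no test made. The background at this limit was 0 in Mv2, 0.472% in sustentacular cells, 1.80% in HBC2, 1.88% in globose basal cells, 8.33% in Mv1 and 11.2% in HBC1.

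Members supplied 19.2% ± 8.64 of the class II receptor UMIs of iOSN1, 24.0% ± 6.63 of iOSN2 and 22.0% ± 1.62 of mature OSNs. The share was 10.8% ± 3.42 in INP and 26.1% ± 7.83 in the types that should lack receptors. The part of free RNA in these shares was not tested. By mouse the iOSN1 shares were 19.5%, 11.2%, 14.9% and 31.1% and the iOSN2 shares ran from 17.3% in mouse 1 to 33.2% in mouse 3. The share was higher than in mature OSNs in 1 of 4 mice for iOSN1 and in 2 of 4 for iOSN2, and higher in iOSN1 than in iOSN2 in 2 of 4 (exact two-sided sign-flip permutation p from 0.5 to 0.875). With each cell given the same weight, the difference was -3.54 ± 3.35 points for iOSN1 minus mature OSNs and -6.89 ± 6.92 for iOSN1 minus iOSN2, both below 0 in 4 of 4 mice.

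A member was the highest receptor of 108 iOSN1 cells (73 different members) and of 205 iOSN2 cells (94 different members). In iOSN1, Olfr1263 had 230 UMIs in 7 cells, Olfr1260 had 195 in 7, Olfr1176 had 184 in 4 and Olfr1122 had 150 in 5, with Olfr1264 between the last 2 and found in 6 cells. In iOSN2, Olfr1213 had 1192 UMIs in 16 cells, Olfr1226 had 977 in 8, Olfr1200 had 665 in 6, Olfr1196 had 484 in 12 and Olfr1122 had 417 in 3. Olfr1213 was the highest receptor of 14 iOSN2 cells, with 2, 4, 4 and 4 by mouse, and the identity of 15 mature neurons, with 1, 2, 6 and 6. Olfr1196 led 11 iOSN2 cells (0, 5, 3 and 3) and had 6 mature neurons, against 43 for Olfr1197, the near-identical gene shown above. The largest mature population, Olfr1226, led 5 iOSN2 cells. Across the 204 members, mature neuron number and UMIs had a Spearman's rho of 0.495 for iOSN2 and 0.374 for iOSN1. In the types that should lack receptors it was 0.472. Against cells with a UMI in place of UMIs, rho was 0.518 for iOSN2, 0.350 for iOSN1 and 0.493 for those types. The part of free RNA in these relations was not tested.

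Receptor transcripts other than the own one numbered 699 UMIs in the 1721 member neurons. Neurons with a second receptor over a limit had been removed before identities were given, so that this number is set in part by that choice. Without it, the 1822 mature OSNs whose highest receptor was a member held 2026 further class II UMIs. Of the 699 UMIs, 20.1%, 12.8%, 27.4% and 15.2% by mouse (mean 18.9% ± 6.44) lay on a receptor gene directly next to the own one. Counting only second receptors with 2 or more UMIs, 167 UMIs in all, the share was 38.7% ± 18.3, from its lowest value in mouse 2 to 56.0% in mouse 3. With every UMI counted, the same genes made up 0.179% ± 0.128 of the receptor UMIs of cells that should lack receptors, and the difference had the same direction in 4 of 4 mice (exact two-sided sign-flip permutation p = 0.125). In all, 131 UMIs in 93 neurons fell on 40 gene pairs. Of these UMIs, 105 (80.2%) lay on the next gene downstream on the same strand, 2 on the next gene upstream and 24 on a neighbour of the opposite strand.

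A few pairs carried much of this signal. Of the 26 neurons with the identity Olfr1030, 14 in 3 mice also held Olfr1031 UMIs, 24 in all, and Olfr1031 starts 2010 bases downstream. Of 20 Olfr1254 neurons, 10 in 4 mice held Olfr1253 UMIs, at a gap of 30235 bases. Olfr1177-ps UMIs were found in 6 of 49 Olfr1176 neurons. The kit reads 3′ ends and the authors had redrawn those of receptor genes, and the part of transcripts that run past an annotated end was not tested. A wider count went by the highest receptor and kept the neurons that had been removed before identities were given. UMIs on next genes were included in it again, and the part of next genes and near-identical copies was not tested. When the highest receptor of a mature OSN was a member, members supplied 40.7%, 35.1%, 34.0% and 28.9% of its further class II UMIs. When it was another class II receptor they supplied 15.1% ± 0.840 (difference 19.6 ± 4.05 points, higher in 4 of 4 mice, exact two-sided sign-flip permutation p = 0.125). In iOSN1 and iOSN2 the same difference changed sign among mice.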

How the data were processed

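Single-cell RNA-seq libraries of the main olfactory epithelium (10x Genomics Chromium 3′ v3.1, 4 mice) were used. Per the submitters' processing notes, Cell Ranger 6.0.1 (STAR) was run on GRCm38, using Ensembl genes whose receptor 3′ ends the authors had redrawn, and the deposited values are unnormalised UMI counts for genes and barcodes. The deposited percent of mitochondrial UMIs was not used. The deposited cell table, made by the authors in Seurat, gives cell types, OSN clusters made without receptor genes, and the receptor identity of a neuron, from its highest receptor after removal of neurons with a second receptor over a limit. The barcodes numbered 21809 and the typed cells 15859, both as the study states. Receptor counts of the members were the same in the matrices and the merged table in 204 of 204 rows.

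The members and gene lists were chosen with earlier results of these data known. Other class II genes were all Olfr genes outside the class I cluster of chromosome 7, and the set without -ps names was added after the data were seen. Positions, types and coding sequences came from the reference annotation of GRCm38 and start windows from RefSeq (GRCm38.p6). Identities were computed with BLAST 2.17.0. UMI sums per mouse and group were tested with edgeR 4.0.16 (TMM scaling, its expression filter, mouse as a block, receptor genes left out). The block was used because both sums of a mouse come from 1 animal and library. SEs were taken as the log2 change divided by the square root of F. Single values were tested with exact two-sided sign-flip permutation over mice. P-values measure the spread between these 4 mice and not that between the populations pooled in a sum. In simulated data with known changes in 4 mice, the test recovered 81% of 2-fold and 96% of 4-fold changes for all clusters, 83% and 99% for the Ventral cluster and 65% and 93% for the dorsal clusters. False calls numbered 7, 9 and 5. The simulated counts had a fixed dispersion and no difference between mice or populations beyond library totals, so these rates need not hold for the real data. DESeq2 1.42.0, other filters, thinning to 5000 UMIs, at most 5 neurons per population and the removal of each mouse were alternatives. No doublet caller was run, and leaving out the 4% of neurons with most UMIs was tried instead. Named members were the 10 largest populations, the 5 highest and 5 lowest own levels, the dorsal ones, the 5 leading in each immature type, those with no neuron and most or fewest UMIs, and the most unlike adjacent and most alike pairs. Other named genes were the up to 10 largest rises and falls that passed in 4 of 4 mice at 0.5 or more UMIs per 10000 in 1 group, or the 10 largest F values. Some genes that these rules select are not reported here.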

Additional observations from a re-analysis of the deposited data

Results flagged for a closer look

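Dixon's test for a single far value at its 95% limit was applied to 94 groups of 4 mouse values and marked 6, where chance marks about 1 in 20. The difference in own receptor level between members and other class II receptors was -1.39 in mouse 3 and above 4 in the other mice. The background share of next genes for second receptors with 2 or more UMIs was 0.809% in mouse 1. The share of neurons of members up to Olfr1176 in the plain Dorsal cluster was 24.2% in mouse 2. The own level was 76.0 for Olfr1264 in mouse 1, 76.3 for Olfr1197 in mouse 2 and 44.5 for Olfr1195 in mouse 1.

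For 9 genes the difference between member and other class II neurons had opposite directions in the plain Ventral cluster and in the dorsal clusters in every mouse, and the difference between the clusters was not tested. The dorsal side pools clusters of which Cd36+ D. held 0 and Cd55+ D. 2 of 1672 member neurons, against 1.21% and 0.838% of other class II neurons, and the part of this mix was not tested. The plain Ventral cluster had been defined by lacking Cd36 and Cd55, among other markers. The log2 change in the Ventral cluster was 1.34 for Cd36, 0.71 for Cd55, 1.01 for Gm31557, 0.23 for H2bc21, 0.25 for Pcdh17, 0.43 for Rasl11a, 0.69 for Scgn and 0.61 for Tppp3, all lower in the dorsal clusters, where the changes were -5.17, -1.33, -2.25, -0.26, -0.42, -0.88, -0.77 and -2.59. In the dorsal clusters Cd36 had 2 UMIs in member neurons, both in mouse 1, against 312 in the others, so that its change there rests on few counts. For Ptn it was -0.78 in the Ventral cluster and 0.32 in the dorsal ones.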

How the results depend on the processing

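With no replicate block they were 15 over all clusters, 33 in the Ventral cluster and 7 in the dorsal clusters, and 362 among populations, and with DESeq2 30, 41, 5 and 396. Thinned to 5000 UMIs they were 48, 84 and 5, and with at most 5 neurons per population 101 in the Ventral cluster. With no filter on low counts 33 of 18757 genes passed in the dorsal clusters, against 21 of 8024 with it. Among populations 674 of 16810 passed without the filter, against 396 of 1458 with it, so that the share among populations depends on the filter. Leaving out 1 mouse at a time gave 77 to 99 over all clusters, 49 to 145 in the Ventral cluster (49 without mouse 1, 108 without mouse 4), 13 to 21 in the dorsal clusters and 316 to 323 among populations. Of 801 single gene values under the alternatives, 585 kept their call, 216 lost it and 0 changed direction. For the 10 genes tested among populations the values have no sign, so direction applies only to the other genes. Of the 90 gene results, 31 kept their call in every alternative in which the gene was tested. Neurons per gene against other class II turned from 1.27 to 0.997 without -ps genes. With only receptors with at least 1 neuron counted it was 1.00, and without the 10 largest populations of each set 1.06. The dorsal difference of 0.203 points was -2.42 by Nqo1 over Nfix, -3.97 with equal weights and -1.37 with only 1 detected receptor, and -0.345 to 0.735 leaving out 1 mouse (-0.345 without mouse 1). The immature minus mature share of class II UMIs ran from -6.88 to 0.650 for iOSN1 (0.650 without mouse 2) and from -1.37 to 3.91 for iOSN2 (-1.37 without mouse 3). The share of iOSN1 cells with a member was 15.2% at 2 or more UMIs, and the likeness of neighbours was 0.0568 for the gene after the next. The cause was not tested in these cases. Shares and levels kept their direction under the other alternatives run, though not always their size. Populations with few neurons and the 4 mice limit the precision.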
